A study of Mus musculus with 2 samples.

Results

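Genes of the exocrine pancreas were examined in RNA from isolated mouse islets. The group comprised 33 genes, chosen by name as acinar enzymes, secretory granule proteins and transcription factors, with trypsinogens and Reg genes left out, among 18193 genes with a probe set of their own on the array. Of the 33 genes, 28 encode enzymes or other proteins of the secretory pathway and 5 encode transcription factors. Islets of adult mice with a beta cell-specific knockout of Zbtb20, a zinc finger transcription factor, were compared with islets of wild-type littermate controls. There was 1 Affymetrix microarray per group. Mice of both groups were aged 2 to 3 months, with a mixed strain background. Collagenase-digested islets were picked by hand and kept in culture overnight before freezing and RNA extraction. The sources used here name neither a Cre driver nor the number of animals behind an array. The study asked which genes ZBTB20 controls in beta cells.

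Acinar cells make up most of the pancreas and surround the islets. They pack digestive enzymes into zymogen granules, most of them as inactive precursors that are switched on in the gut. Their programme is driven by PTF1, a complex of the helix-loop-helix factor PTF1A with RBPJL and an E-protein partner, together with NR5A2, GATA4 and BHLHA15 (also called MIST1). Beta cells do not make these enzymes in appreciable amounts, and islets picked after collagenase digestion commonly carry some acinar tissue.

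PTF1 binds an E-box, CANNTG, followed about a helical turn later by a TTTCCC box. The 250 bases before the gene start (RefSeq, GRCm38.p6) are shown for Cela1 and Ctrb1, the genes of the group in which a script found an E-box and TTTCCC separated by 4 to 6 bases. Gatm is shown beside them as the measured gene that moved in the opposite direction. Capitals mark, on either strand, the motifs that are spelled out and counted below the sequences, including both boxes of the paired motif. The Cela1 sequence lies at chr15:100687921-100688170, the Ctrb1 sequence at chr8:111691011-111691260 and the Gatm sequence at chr2:122611278-122611527, all on the minus strand.
Cela1: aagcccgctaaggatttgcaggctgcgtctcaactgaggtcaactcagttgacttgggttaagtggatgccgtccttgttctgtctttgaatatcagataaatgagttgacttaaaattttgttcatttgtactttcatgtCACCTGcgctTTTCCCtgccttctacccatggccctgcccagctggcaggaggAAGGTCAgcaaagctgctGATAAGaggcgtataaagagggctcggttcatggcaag
Ctrb1: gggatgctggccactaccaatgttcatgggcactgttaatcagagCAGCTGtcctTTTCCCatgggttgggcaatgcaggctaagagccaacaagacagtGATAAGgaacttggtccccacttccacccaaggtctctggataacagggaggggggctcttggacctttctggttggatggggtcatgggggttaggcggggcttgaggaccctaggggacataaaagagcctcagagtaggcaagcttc
Gatm: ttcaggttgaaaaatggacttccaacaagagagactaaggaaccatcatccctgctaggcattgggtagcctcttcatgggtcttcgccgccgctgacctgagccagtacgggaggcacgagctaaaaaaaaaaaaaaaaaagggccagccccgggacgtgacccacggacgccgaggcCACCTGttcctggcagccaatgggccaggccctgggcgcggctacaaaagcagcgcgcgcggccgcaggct

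The paired motif runs from 109 to 94 bases before the start in Cela1 and from 205 to 190 bases before it in Ctrb1. RefSeq promoters were found for 25 of the 33 genes, and a gene with several starts was counted once. The paired motif was present in 2 of these 25 genes (8%), against 0.322% of 27025 genes with a promoter of the same length. CACCTG, the E-box form in the Cela1 promoter, was present in 14 of the 25 (56%) and in 19.4% of all genes. GATAAG, a sequence that GATA factors bind, was present in 11 (44%) and in 7.60% of all genes. AAGGTCA, bound by NR5A2, was found in 3 (12%) and in 4.70% of all genes. TTTCCC alone was found in 5 (20%), against 24.4% of all genes, and CATATG, an E-box that BHLHA15 binds, in none of the 25, against 3.98% of all genes. The motifs were chosen after these promoters had been read, so the shares describe these sequences and test nothing. Both strands were searched, the paired motif overlaps its own boxes, and a match is a description of the letters and not of a bound site.

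The values are MAS5 signals, linear intensities that summarise the probes of a probe set. Each gene is represented by its brightest probe set unless stated otherwise. The median of each array, 21.7 on the knockout-labelled and 21.6 on the control array, was used as a floor, and a gene at or under it on both arrays was given no ratio. Ratios are knockout-labelled over control. With 1 array per group there is no replicate error, and no ratio was tested for significance. The number of arrays limits the precision of every value.

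Zbtb20 itself did not settle the genotype label. Its 9 probe sets had log2 ratios between -0.87 and 0.54, with 5 below 0 and 4 above, and the brightest gave 205 in knockout-labelled and 238 in control islets. The deleted segment is not stated, and a probe set outside it checks nothing. Islet cells of other types keep the gene, so the array is called knockout-labelled below.

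Of the 33 acinar genes, 32 had a probe set of their own, and 25 of these were above the floor on both arrays. None was above it on 1 array only. Pnlip, which encodes pancreatic lipase, was not analysed here. The label of the group fits its enzymes, most of which were far above the floor on both arrays. It is met less well by the transcription factors, of which Bhlha15 alone was above the floor.

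Acinar enzymes and secretory proteins were lower in knockout-labelled islets almost throughout. Of the 24 measured genes, 22 had a log2 ratio below 0, against 49.8% of all 11802 genes measured. The median log2 ratio was -0.97, a 1.96-fold lower signal, beside 0 over all genes. At a limit of 2-fold, 12 of the 24 were lower, against 1.44% of all genes, and 1, Gatm, was higher, against 1.82% of all genes. At a limit of 1.5-fold, 21 of the 24 were lower, against 6.2% of all genes. In a mixed tissue such as this, fewer acinar cells and less RNA per acinar cell cannot be told apart.

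**Figure D1:**
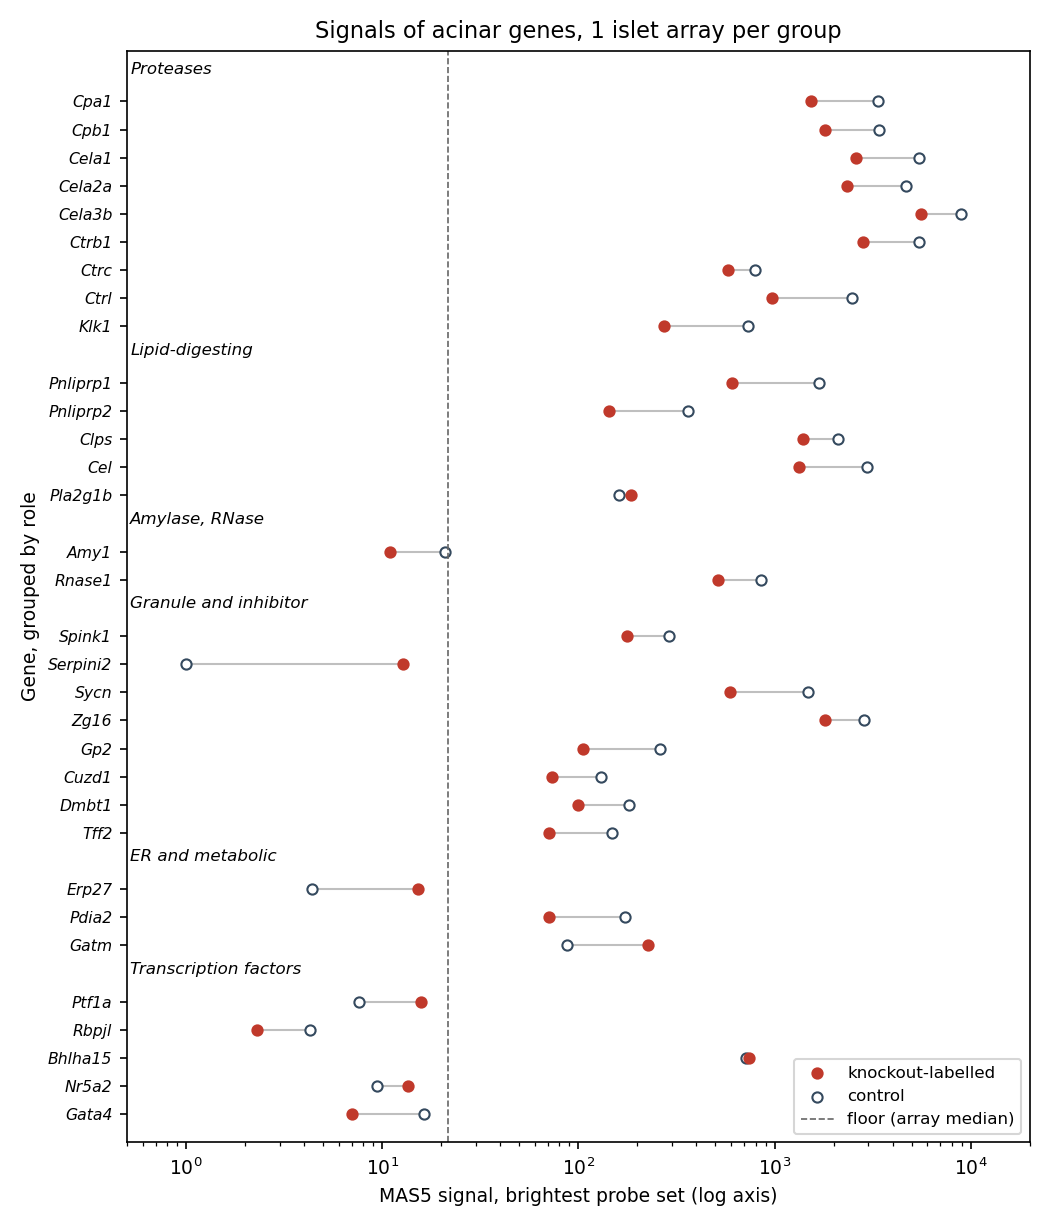
MAS5 signal (log axis) of the brightest probe set of each acinar gene with a probe set of its own, on the knockout-labelled array (filled) and the control array (open), by role. The dashed line is the floor; 22 of the 24 enzymes and secretory proteins above it lie lower on the knockout-labelled array, and 4 of the 5 transcription factors lie under it on both.

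Among the roles with more than 2 measured genes, the SD was 0.27 for granule proteins and 0.30 for proteases. It was 0.69 for lipid-digesting genes, which include Pla2g1b at a log2 ratio of 0.22. All 9 proteases were lower in knockout-labelled islets, with a median log2 ratio of -1.0, quartiles of -1.12 and -0.91 and an SD of 0.30 across genes. Cpa1, a carboxypeptidase that removes C-terminal aromatic and aliphatic residues, had a signal of 1543 in knockout-labelled and 3362 in control islets, 2.18-fold lower. Cpb1, the carboxypeptidase for basic residues, had 1811 against 3403, 1.88-fold lower.

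Among the elastases, which cut next to small or hydrophobic residues, Cela1 had a signal of 2587 in knockout-labelled islets and 5446 in control islets. Cela2a had 2345 against 4705. These are 2.11-fold and 2.01-fold lower. Cela3b was at 5590 against 8913 and thus 1.59-fold lower, but its 3 other probe sets gave larger shifts, with log2 ratios of -1.10, -1.20 and -1.53 (SD 0.35 over the 4). A probe set that cannot separate Cela3a from Cela3b gave 6180 in knockout-labelled and 10144 in control islets, a log2 ratio of -0.71.

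The chymotrypsins, which cut after large hydrophobic residues, were less alike. Ctrb1 was at 2834 in knockout-labelled and 5450 in control islets, 1.92-fold lower. Ctrl was at 966 against 2470, 2.56-fold lower. Ctrc, which regulates trypsinogen activation and breakdown, showed the smallest decrease of the proteases, 576 against 794 or 1.38-fold. The 2-fold limit thus divides genes that lie close together, with Cela2a at 2.01-fold just past it and Ctrb1 at 1.92-fold just short of it.

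Klk1, tissue kallikrein, was 2.68-fold lower, with 272 in knockout-labelled islets and 729 in control islets. Its 4 probe sets disagreed. The second brightest, the only one without the suffix _x_at, gave a log2 ratio of -1.47. The other 2 gave -0.52 and, for the dimmest, 0.56. Kallikreins form a large family of close copies, and the suffix _x_at marks probe sets whose probes can match other transcripts.

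Genes for the digestion of lipids spanned a wider range than the proteases, but only through Pla2g1b, whose probe sets disagreed. Without it, an exclusion chosen after the values were seen, their log2 ratios ran from -1.48 to -0.59. Those of the proteases ran from -1.42 to -0.46. Pnliprp1, a relative of pancreatic lipase, was 2.78-fold lower, at 607 in knockout-labelled against 1688 in control islets. By brightest probe sets, this was the lowest ratio among the measured genes of the group. Pnliprp1 ranked 28th from the lowest among 11802 genes. Pnliprp2, a galactolipase, was 2.51-fold lower at 144 against 361, and its other probe set gave a log2 ratio of -1.38. Cel, the bile salt-activated lipase, was 2.23-fold lower at 1330 against 2972.

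Clps, which encodes colipase, the cofactor that anchors lipase to fat droplets, was 1.51-fold lower, at 1402 in knockout-labelled and 2115 in control islets. Its other probe set gave -0.48 on the log2 scale. Pla2g1b, the pancreatic phospholipase A2, had no consistent direction. Its brightest probe set had 187 in knockout-labelled and 160 in control islets, a log2 ratio of 0.22, while another probe set had 103 against 231, a log2 ratio of -1.16. Its 2 remaining probe sets were under the floor on both arrays.

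Rnase1, the secreted pancreatic ribonuclease, was 1.65-fold lower, at 515 in knockout-labelled and 850 in control islets. Amy1, the salivary and liver form of amylase, was under the floor with 11 in knockout-labelled and 20.8 in control islets. A probe set shared by Amy1 and Rnpc3, a splicing factor gene, read 39.3 in knockout-labelled and 33.2 in control islets, a log2 ratio of 0.24. The pancreatic amylases had no probe set of a single gene. A probe set shared by 5 Amy2a copies read 8977 in knockout-labelled and 13396 in control islets, 1.49-fold lower.

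Granule proteins and inhibitors were lower in all 7 measured genes, with a median log2 ratio of -0.86 and an SD of 0.27. Sycn, which encodes the granule membrane protein syncollin, was at 591 in knockout-labelled and 1477 in control islets. Both its probe sets gave -1.32 on the log2 scale. Gp2, the main glycoprotein of the granule membrane, was at 106 against 261, 2.47-fold lower.

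Zg16, a lectin of the zymogen granule, was at 1799 in knockout-labelled and 2863 in control islets, a log2 ratio of -0.67, and its 2 other probe sets gave -0.74 and -0.96. Spink1, the inhibitor that restrains trypsin inside the gland, was 1.63-fold lower at 177 against 289. The remaining genes followed the same direction. Cuzd1, a zymogen granule protein, was at 73.1 against 131, and Dmbt1, a mucosal scavenger receptor also made by duct cells, at 99.3 against 181. Tff2, a trefoil peptide, was 2.08-fold lower at 71.0 against 148. Serpini2, a serine protease inhibitor gene, was under the floor on both arrays, at 12.8 in knockout-labelled and 1 in control islets.

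Gatm and Pdia2 went opposite ways. Pdia2, a protein disulphide isomerase enriched in the pancreas, was 2.44-fold lower, at 70.8 in knockout-labelled and 173 in control islets. Gatm, the amidinotransferase of creatine synthesis that is abundant in acinar cells and kidney, was 2.59-fold higher, at 225 against 87.1. Both genes have a single probe set. Erp27, another disulphide isomerase family member, was under the floor in both its probe sets.

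**Figure D2:**
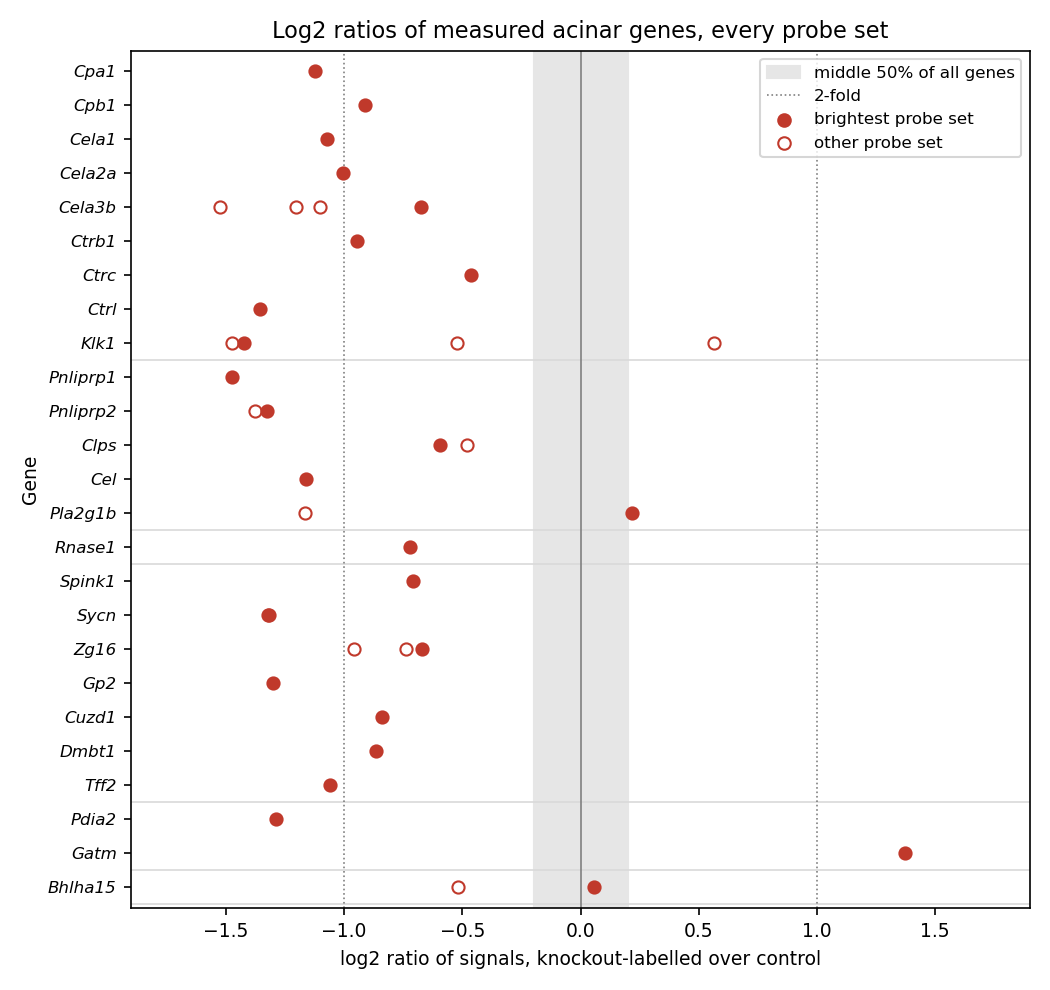
Log2 ratio of knockout-labelled over control signals for each measured probe set of the 25 measured acinar genes; filled points are the brightest probe set, open points the others, and the grey band holds the middle 50% of all genes. Most points lie between -0.5 and -1.5, Gatm lies at 1.37, and the probe sets of Klk1, Pla2g1b and Bhlha15 fall on both sides of 0.

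The transcription factors could be compared with the enzymes through 1 gene only. Bhlha15, which drives secretory cell maturation and is also expressed in other secretory cells, was at 741 in knockout-labelled and 714 in control islets, a log2 ratio of 0.05. Its second, dimmer probe set was at 75 against 107, a log2 ratio of -0.52. These values straddle 0, and the brighter one lies above the ratios of 22 of the 24 enzymes and secretory proteins. The difference between Bhlha15 and the enzymes rests on 1 gene and was not tested.

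Signals of the other 4 regulators were within the lower part of both arrays. Ptf1a was at 15.8 in knockout-labelled and 7.60 in control islets. Rbpjl, its pancreas-specific partner, was at 2.30 against 4.30, Nr5a2, a nuclear receptor, at 13.5 against 9.40, and Gata4 at 7 against 16.3. None of the probe sets of these 4 genes was above the floor on either array. No shift can therefore be given for PTF1 or its partners on arrays that detected their enzyme targets strongly.

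The shift of the enzymes and secretory proteins was common in direction but not of equal size. The quartiles of the 24 log2 ratios ran from -1.29 to -0.70, an interquartile range of 0.59, against 0.40 for the 10450 genes that exceeded both floors. The SD across the 24 genes was 0.61, and 0.39 without Gatm, against 0.41 over those 10450 genes. Over the 6572 genes at least as bright as the dimmest measured acinar gene, the interquartile range was 0.33 and the SD 0.36. Within 0.5 of their median lay 20 of the 24. Around their own medians, so did 8760 of the 10450 genes and 5904 of the 6572 genes. As a guide to probe noise, the median SD among probe sets of the same gene was 0.21 over 4719 genes. Among the acinar genes it ran from 0.0027 for Sycn to 0.98 for Pla2g1b. Probe sets share the RNA and the array, so this spread leaves out any difference between animals.

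The spread was also described by signal. The 11 enzymes and secretory proteins with a mean signal of at least 1000 (by the geometric mean of both arrays) had an SD of 0.28 and a median log2 ratio of -1.0, and all were below 0. Over all 895 genes of that signal the SD was 0.30 and the median log2 ratio -0.06, and 568 were below 0. The interquartile range went the other way, 0.23 over the 895 genes and 0.35 over the 11 enzymes and secretory proteins. The 13 dimmer ones had an SD of 0.78 and a median of -0.86. Their SD rests on Gatm and Pla2g1b, since it was 0.47 without Gatm and 0.32 without both, exclusions chosen after the values were seen. Across the 24 genes the log2 ratio had a Pearson correlation of -0.21 and a Spearman correlation of -0.03 with mean log2 signal, a description over genes that share both arrays. Of the 895 genes with a mean signal of at least 1000, 11 were at least 2-fold lower (1.23%). Acinar genes of the group were 6 of those 11, namely Cel, Cela1, Cela2a, Cpa1, Ctrl and Pnliprp1. The other 5, named after their values were seen, were the trypsinogen gene Prss2, Reg1, Nupr1, Hspa1b and B830017H08Rik.

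**Figure D3:**
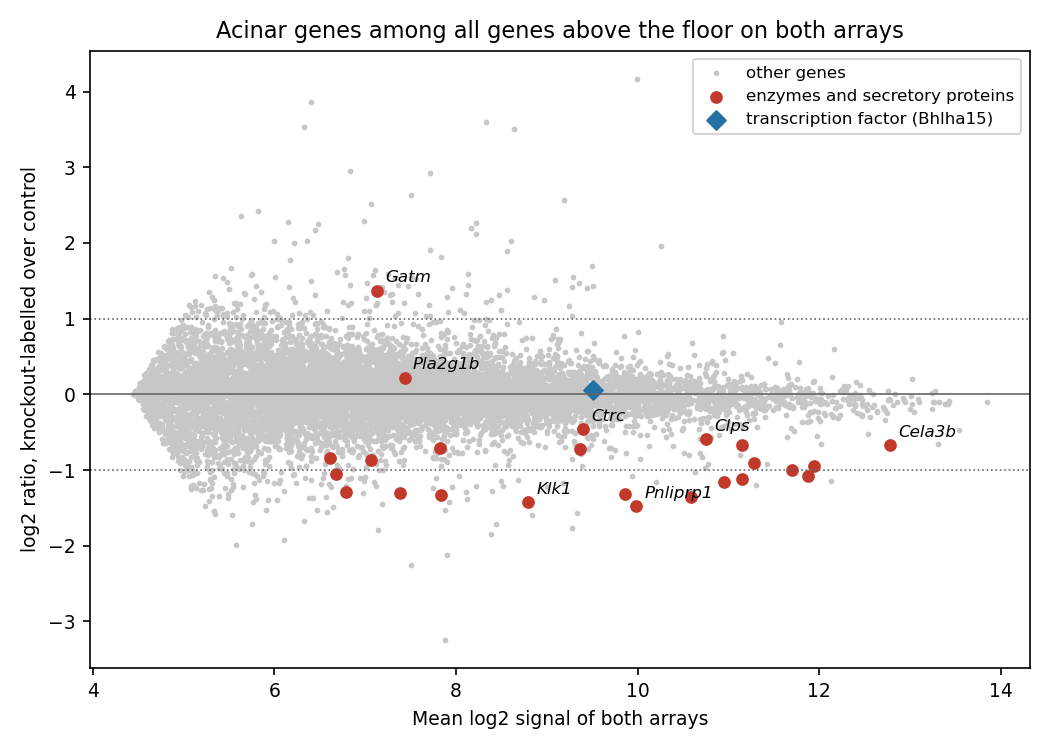
Log2 ratio of knockout-labelled over control signals against mean log2 signal for the 10450 genes above the floor on both arrays (grey), with the 24 enzymes and secretory proteins (circles) and Bhlha15 (diamond) marked. Of the 24 enzymes and secretory proteins, 22 lie below 0 and 12 at or past the lower 2-fold line, with Gatm and Pla2g1b above 0; none has a mean signal under 97.8.

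Acinar cells also make trypsinogens and Reg proteins, which are outside the group. Prss2 was lower by a similar amount, with a log2 ratio of -1.14 (3013 in knockout-labelled and 6649 in control islets), and 2210010C04Rik by less, at -0.66, whereas Prss3 was 5.92-fold higher at 1426 against 241. Prss3 has close copies whose transcripts its probe set may also take up. A probe set shared by Prss1, Prss3 and other copies was 6.81-fold higher, at 3067 in knockout-labelled and 450.4 in control islets. One shared by Gm2663 and 1810009J06Rik was at least 21.4-fold higher, at 461.5 against 12.8, which is under the floor, and one shared by Try4 and Try5 was 1.38-fold lower, at 4249 against 5853. The 4 measured Reg genes had larger decreases, with a median log2 ratio of -1.91 and Reg2 at -3.24. Reg3d was under the floor in knockout-labelled islets at 21.5, so its ratio is a bound.

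Another list of 14 acinar genes, including exocytosis, receptor and stress genes, gave 5 measured genes with a median log2 ratio of 0.01. Of these, 1 was at least 2-fold lower, against 1.44% of all genes, and none was 2-fold higher, against 1.82%. Nupr1, a stress-induced chromatin protein, was 2.29-fold lower, at 1678 in knockout-labelled and 3839 in control islets, and Tmed6, a cargo protein of the early secretory pathway, was 1.84-fold lower at 110.0 against 202. Rab3d and Vamp8, granule trafficking genes that other secretory cells also express, had log2 ratios of 0.14 and 0.11. Cckar, the cholecystokinin receptor gene of acinar cells, and Aqp8 and Aqp12, their water channel genes, were under the floor on both arrays.

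**Figure D4:**
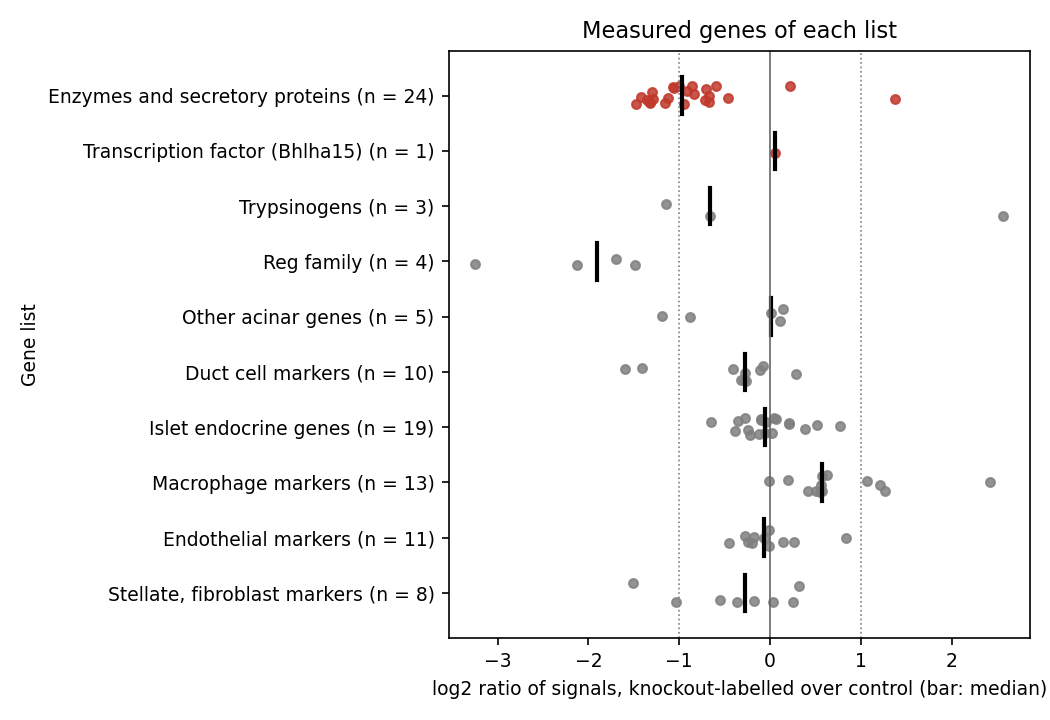
Log2 ratios of knockout-labelled over control signals for the measured genes of each list, with the median as a bar; dotted lines mark 2-fold, and ratios with 1 array at the floor are bounds. The enzymes and secretory proteins have a median of -0.97, islet endocrine genes one of -0.06 and macrophage markers one of 0.57.

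Markers of other cells of the preparation moved as follows beside the acinar shift. Over all genes, 49.8% were below 0, 1.44% were at least 2-fold lower and 1.82% at least 2-fold higher. Islet endocrine genes had none of 19 measured genes at 2-fold and a median log2 ratio of -0.06, with summed signals of 104918 in knockout-labelled and 113158 in control islets. The measured acinar genes summed to 26662 against 49742. Duct cell markers had 9 of 10 measured genes below 0, 2 of them at least 2-fold lower (Prom1 by 3.03-fold and Car2 by at least 2.66-fold), a median of -0.28, and sums of 8375 against 10092. Krt19, a defining duct keratin, was at 41.0 against 51.1.

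Macrophage markers were higher in 12 of 13 measured genes, against 5893 of all 11802 genes. Of the 13, 4 were at least 2-fold higher, against 1.82% of all genes. Among these 4, Fcer1g was under the floor at 20.2 in control islets and Mrc1 just above it at 24.5. The median log2 ratio of the macrophage markers was 0.57, and their sums were 1952 in knockout-labelled and 1248 in control islets. None of the 11 measured endothelial markers reached 2-fold, their median log2 ratio was -0.07 and their sums were 1360 against 1407. Of 8 measured stellate and fibroblast markers 2 were at least 2-fold lower, against 1.44% of all genes, with a median of -0.27 and sums of 783 against 771. In knockout-labelled islets these 2 were weak, Col3a1 just above the floor at 22.5 and Dcn under it at 19.8. Of the lymphocyte markers, 2 of 8 were measured, with sums of 64.5 and 72.7. The lowest signal on either array was 0.1, so no marker could read 0, and markers under the floor on both arrays were given no ratio. The part of these cell types in the acinar shift was not tested.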

How the data were processed

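Total islet RNA was measured on 2 Affymetrix arrays, 1 per group. The deposited values are probe set intensities on a linear scale, made with MAS5 per the submitters' processing notes. The sources used here give no version, scaling target or detection calls. The table held 45037 probe sets. The supplied platform annotation gave 34945 of them 1 gene, 932 several genes and 9160 none. All 32 members found matched RefSeq by Entrez identifier.

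Intensities were used as deposited. Signals under the 50th percentile of their array were raised to it, and log2 ratios were taken with Python 3.11.15, numpy 2.4.6 and pandas 2.3.3. The procedure was tested on simulated data. Genes called had at least a 2-fold ratio. A single array per group allows no test.

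The members and lists were chosen with earlier results of these data known, and the promoter motifs after the promoters had been read. Genes named are all 33 members, Zbtb20, up to 4 genes per other list by size of ratio, and a few defining markers. Alternatives were other floors, scalings, probe set rules and size limits.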

Additional observations from a re-analysis of the deposited data

How the results depend on the processing

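Over 9 alternatives (floors at the 30th and 70th percentile, no floor with a pseudocount of 16, median, quantile and loess scaling, the mean over probe sets, members above 5000 left out and, added after seeing the data, no _x_at or _s_at probe sets), the median log2 ratio of the enzymes and secretory proteins stayed between -1.03 and -0.90, and that of the digestive enzymes (15 of 17 measured in the reported setting) between -1.07 and -0.91. With these, 10 to 13 members were at least 2-fold lower, against 12 of 25 measured members and 1.44% of all genes in the reported setting. At a 1.5-fold limit 21 were lower, against 6.2% of all genes, and at a 3-fold limit 0 were lower and 0 higher. The transcription factor median was 0.29 with the floor at the 30th percentile, where 4 were measured, and -0.23 with the mean over probe sets. The SD across enzymes and secretory proteins was 0.61 in the reported setting. It was 0.71 with the floor at the 30th percentile, 0.67 with no floor and 0.56 with the mean over probe sets. Without Gatm, an exclusion chosen after seeing the data, it was 0.39. Of 200 single-gene values, 195 moved by no more than 0.21. The others, for Bhlha15, Cela3b, Klk1 and Pla2g1b, followed the choice of probe sets. The 195 include values that could not move. These genes exceeded the floors at the 30th and 70th percentile on both arrays, so neither floor changed them. Median scaling shifted all genes alike, and the mean over probe sets could not move a gene with 1 measured probe set. Of all 11802 genes measured, 170 were at least 2-fold lower and 215 higher. The number measured changed with the floor. These counts were 638 and 695 of 15370 genes under the lower floor and 64 and 96 of 8175 under the higher one. At a 1.5-fold limit they were 732 and 814 of 11802, and at a 3-fold limit 17 and 51. No paired analysis was possible because each group has 1 array. Very bright signals can be compressed, and weak ones lie near background, which limits both ends.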
